A study of Mus musculus with 14 samples.

Results

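The Atp13a genes encode P5-type ATPases, membrane pumps that use ATP to move cargo across or out of intracellular membranes. The 4 genes described here are the rows of the count table with the symbols *Atp13a1*, *Atp13a2*, *Atp13a3* and *Atp13a4*, out of 19525 genes. All 4 were measured in all 14 libraries, with no fewer than 42 counts for any of them in any library. The family was chosen by the high level of *Atp13a4* after *Dhps* silencing, seen earlier in these same libraries. Values that involve the *Dhps*-silenced libraries are therefore given as a description without a test for the 4 genes, and only the other comparisons were tested.

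Polyamines (putrescine, spermidine and spermine) are small cations that cells make from ornithine or take up from outside. Proteins of the P5B class carry them from the lumen of endosomes and lysosomes into the cytosol. ATP13A2 does so in late endosomes and lysosomes, while ATP13A3 and ATP13A4 act in earlier endosomal compartments and contribute to polyamine uptake. ATP13A1 is different, and calling all 4 genes polyamine-transporting goes beyond what is known of it: it is the P5A ATPase of the endoplasmic reticulum and extracts proteins that were inserted wrongly into that membrane. *Atp13a5*, another P5B gene, was not analysed here. Spermidine is also the substrate of deoxyhypusine synthase (DHPS), which transfers part of it to the translation factor eIF5A.

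RNA was sequenced from the cytosolic lysate of 4T1 tumor spheroids, the input of a polysome profiling experiment. 4T1 is a mouse triple-negative breast cancer cell line, and its spheroids spent 5 days in lung-like medium (LLM), whose nutrient levels resemble those of lung interstitial fluid. Control cells with a non-targeting hairpin received 700 µM aspartate (ASP shSCR, n = 4) or no added aspartate (NoASP shSCR, n = 3). The silenced groups were cells whose hairpin targets the NMDA receptor subunit gene *Grin2d* (ASP shGRIN2D, n = 3) or *Dhps* (ASP shDHPS, n = 4), always with the 700 µM aspartate. All cells carried a lentiviral pLKO hairpin vector and were selected with puromycin as polyclonal lines, and replicates were separate spheroid pellets of a line, so that effects of a hairpin and differences between lines cannot be told apart.

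Total counts were 12731123 to 23231378 per library. *Dhps* checked the labels: it reached 6.93 ± 1.74 CPM (counts scaled to library size, SD, n = 4) in ASP shDHPS against 19.4 ± 2.28 CPM (n = 4) in ASP shSCR, with no overlap. *Grin2d* was low and gave a weaker check, with 37 to 47 counts in ASP shGRIN2D and 53 to 76 in ASP shSCR. Its level was 2.06 to 3.13 CPM in ASP shGRIN2D and 3.23 to 4.16 CPM in ASP shSCR, without overlap. It did overlap with NoASP shSCR (3.05 to 6.95 CPM). The difference of *Grin2d* between ASP shGRIN2D and ASP shSCR did not pass the test (edgeR quasi-likelihood, adjusted p = 0.516). Of 9 epithelial markers, 8 were in the table, and their summed level was 5245 to 5414 CPM in ASP shSCR, 5172 to 5396 in NoASP shSCR, 3910 to 4223 in ASP shGRIN2D and 4049 to 4736 CPM in ASP shDHPS. *Krt5* was not analysed. Summed leukocyte and endothelial markers reached at most 0.918 CPM in every library, fibroblast markers at 22.9 to 41.7 CPM and neuronal and glial markers at 34.9 to 52.1 CPM. Nearly all of the fibroblast sum was *Pdgfra*, with *Col1a1* at most 1.39 CPM and *Dcn* at or near 0, and nearly all of the neuronal and glial sum was *Mbp*, with *Syp*, *Tubb3* and *Gfap* at most 0.432 CPM. On the first principal component (32.3% of the variance), ASP shSCR replicate 2 (−25.8) and NoASP shSCR replicate 2 (−19.7) lay at one end and ASP shDHPS replicate 1 (27.6) at the other. Results that rest on these 3 libraries are also given without them.

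Because the genes are related, a read could in principle be assigned to the wrong one. The exact stretches shared between transcripts of 2 of these genes, *Atp13a5* included, were at most 23 bases long in the GENCODE M21 annotation, and thus shorter than a sequencing read. Windows of 30 bases show the longest stretches that *Atp13a4* shares with *Atp13a2* and *Atp13a5*, where reads would be hardest to divide. They are read along the mRNA from 5′ to 3′, and capitals mark the longest unbroken identical stretch, outside which single bases are identical too. The first pair has a stretch of 21 bases, with 26 of the 30 bases of the window identical, at positions 2960 to 2989 and 3003 to 3032 of the longest coding transcript of each gene. The second pair has a stretch of 23 bases, with 28 of the 30 identical, at positions 2752 to 2781 and 2653 to 2682 of the corresponding transcripts.
*Atp13a2*: cttcAAGTACATGGCCCTCTACAGCctgac
*Atp13a4*: gtttAAGTACATGGCCCTCTACAGCatgat
*Atp13a4*: atcTTTGCAAGAATGTCTCCTGGGCAaaag
*Atp13a5*: attTTTGCAAGAATGTCTCCTGGGCAgaag
On the same annotation, *Atp13a2*, *Atp13a3* and *Atp13a4* overlap no other gene. *Atp13a1* overlaps *Zfp866* on the opposite strand (mean 22.2 CPM). The libraries were stranded, but the strand setting of the counting is not given in the sources used here.

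To compare the genes with each other, CPM was divided by the length of the longest coding transcript in kilobases (3915 bases for *Atp13a1*, 3956 for *Atp13a2*, 7310 for *Atp13a3* and 4238 for *Atp13a4*). In ASP shSCR, *Atp13a3* had the highest level per kilobase, 26.2 ± 0.968 CPM per kilobase (SD, n = 4), followed by *Atp13a1* with 19.3 ± 0.925, *Atp13a2* with 6.94 ± 0.431 and *Atp13a4* with 0.866 ± 0.366 CPM per kilobase. This order held in 13 of the 14 libraries. In the exception, ASP shDHPS replicate 3, *Atp13a1* was above *Atp13a3*, whose ratio to it was 0.961 there and reached 1.66 elsewhere. Thus *Atp13a3* was the main P5B transcript of these spheroids in every group, and *Atp13a4* the least abundant.

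*Atp13a4* also differed most between groups. In ASP shSCR replicates 1 to 4 it measured 2.75, 2.34, 3.77 and 5.81 CPM, and in NoASP shSCR replicates 2 to 4 it measured 3.10, 5.70 and 4.89 CPM. In ASP shGRIN2D replicates 1 to 3 it measured 2.73, 3.88 and 3.20 CPM. In ASP shDHPS replicates 1 to 4 it measured 9.56, 7.93, 10.7 and 11.0 CPM. The lowest *Dhps*-silenced library was above each of the 10 others, which overlapped among themselves. The highest of those 10, ASP shSCR replicate 4, was also the library with the fewest total counts, and its value rested on 74 counts. The counts of *Atp13a4* were 42 to 108 in the 10 libraries and 119 to 206 in ASP shDHPS.

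*Atp13a3* varied little between groups. It measured 199, 183, 196 and 189 CPM in ASP shSCR replicates 1 to 4 and 189.7, 171 and 200.1 CPM in NoASP shSCR replicates 2 to 4. It measured 218, 211 and 187 CPM in ASP shGRIN2D replicates 1 to 3 and 202, 209, 162 and 212 CPM in ASP shDHPS replicates 1 to 4. All groups overlapped, and the lowest value belonged to the same ASP shDHPS replicate 3 that had the highest *Atp13a1* value.

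*Atp13a2* measured 29.3, 28.5, 26.5 and 25.6 CPM in ASP shSCR replicates 1 to 4 and 31.8, 25.0 and 29.7 CPM in NoASP shSCR replicates 2 to 4. It measured 28.7, 29.5 and 25.9 CPM in ASP shGRIN2D replicates 1 to 3 and 15.1, 26.6, 24.1 and 25.1 CPM in ASP shDHPS replicates 1 to 4. A single library, ASP shDHPS replicate 1, was far below the rest, and the other 3 of its group lay near or within the range of the remaining groups. *Atp13a1*, the endoplasmic reticulum member, measured 74.8, 70.7, 78.8 and 77.8 CPM in ASP shSCR replicates 1 to 4 and 67.0, 86.8 and 89.1 CPM in NoASP shSCR replicates 2 to 4. It measured 71.7, 73.4 and 81.4 CPM in ASP shGRIN2D and 65.4, 82.4, 90.2 and 87.3 CPM in ASP shDHPS. The groups overlapped, and its lowest value was again that of ASP shDHPS replicate 1.

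**Figure D1:**
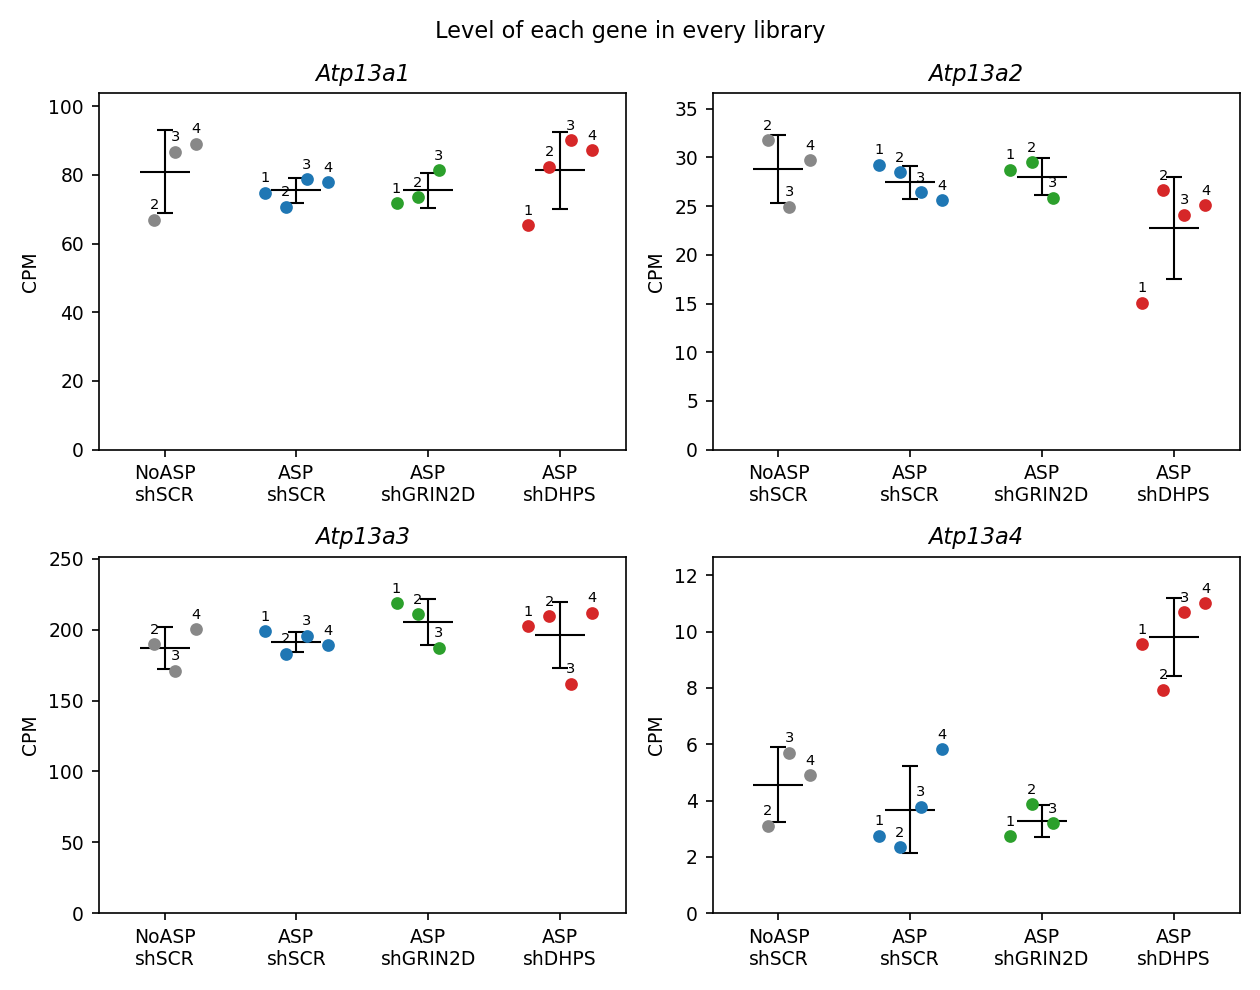
CPM of each gene (vertical axis, starting at 0) in each library, by group on the horizontal axis. Points are libraries with their replicate number, and the black bar is the group mean ± SD (n = 3 or 4). *Atp13a4* in ASP shDHPS (7.93 to 11.0 CPM), the level by which the family was chosen, lies above the other groups. *Atp13a2* in ASP shDHPS replicate 1 (15.1 CPM) stands below its group.

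The P5B genes together made up a similar amount of transcript in all groups: their summed level was 34.0 ± 1.04 CPM per kilobase in ASP shSCR (SD, n = 4), 33.9 ± 2.6 in NoASP shSCR (n = 3), 36.0 ± 2.66 in ASP shGRIN2D (n = 3) and 34.9 ± 3.31 in ASP shDHPS (n = 4). Within this sum, *Atp13a4* held 2.55 ± 1.09% in ASP shSCR, 3.22 ± 1.11% in NoASP shSCR, 2.15 ± 0.396% in ASP shGRIN2D and 6.69 ± 1.30% in ASP shDHPS. Its share was 5.02% to 8.20% in the *Dhps*-silenced libraries and 1.68% to 4.33% in the others. *Atp13a3* held 75.3 ± 0.598% to 78.1 ± 0.834% of the sum as group means, and 72.0% (replicate 3) to 82.0% (replicate 1) within ASP shDHPS. *Atp13a2* held 20.4 ± 1.30% in ASP shSCR and 16.5 ± 3.69% in ASP shDHPS, where replicate 1 was lowest with 11.3%. *Atp13a4* therefore remained a minor P5B transcript in ASP shDHPS even at its highest share.

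**Figure D2:**
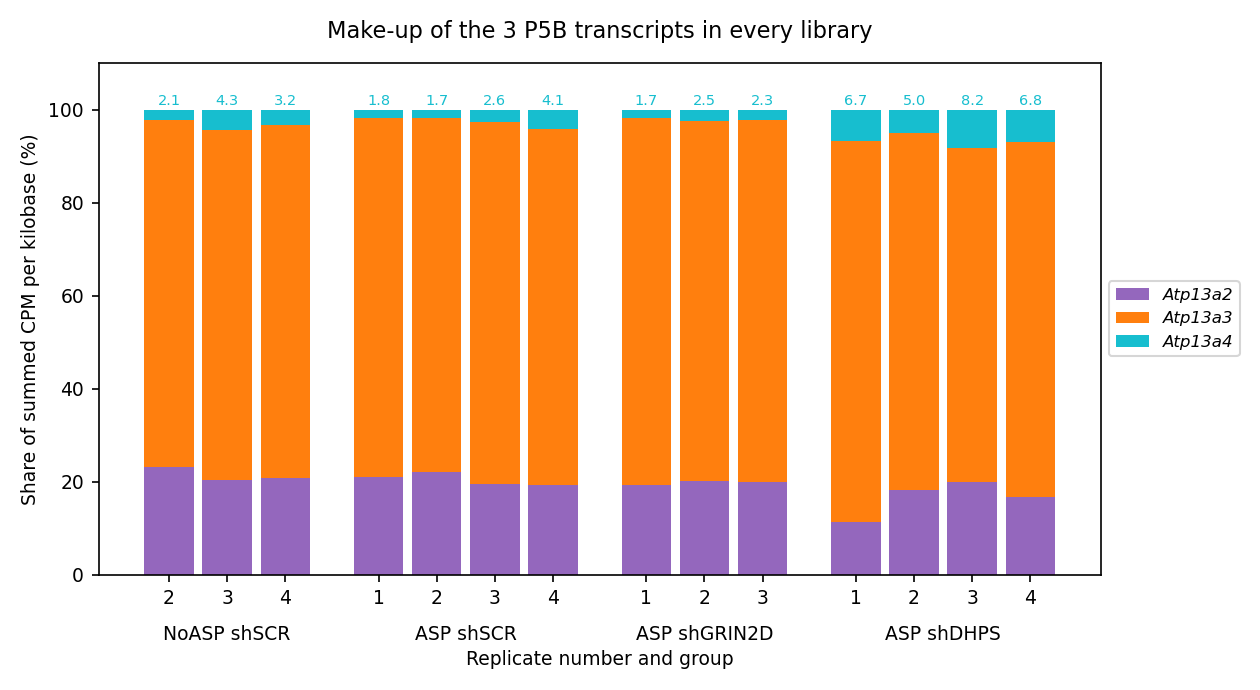
Share of *Atp13a2*, *Atp13a3* and *Atp13a4* in their summed CPM per kilobase (vertical axis, percent) in each library, with replicate numbers and groups on the horizontal axis and the *Atp13a4* share printed above each bar. *Atp13a3* fills most of every bar (72.0% to 82.0%, both ends in ASP shDHPS), and the *Atp13a4* part is largest in ASP shDHPS (5.02% to 8.20%).

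The first question of the study design is what aspartate does to these spheroids. None of the 4 genes passed the test: the log2 fold changes of ASP shSCR over NoASP shSCR were 0.04 (SE 0.10) for *Atp13a3*, −0.07 (SE 0.14) for *Atp13a2*, −0.35 (SE 0.26) for *Atp13a4* and −0.10 (SE 0.11) for *Atp13a1* (adjusted p = 1 for each by edgeR's quasi-likelihood test). None of the 4 had an unadjusted p under 0.05. The test called 0 of 19525 genes at an adjusted p under 0.05 (0% called), while 424 had an unadjusted p under 0.05, and DESeq2 also called 0. The replicate numbers paired these libraries. Adding that number as a block to the fit of all 14 libraries called 2 genes. These were the predicted genes *Gm20458* and *Gm22317*, named here after their values were seen. The same block within the 7 shSCR libraries alone called 64 genes, 40 of them higher with aspartate, and no Atp13a gene was among them. The 95% interval ran from −0.17 to 0.24 for *Atp13a3*, from −0.37 to 0.23 for *Atp13a2* and from −0.33 to 0.13 for *Atp13a1*. For *Atp13a4* it was wider, −0.88 to 0.19, which corresponds to a fold of 0.542 to 1.14. The sign for *Atp13a2* turned without NoASP shSCR replicate 2 (0.0076) and that for *Atp13a3* without NoASP shSCR replicate 3 (−0.025).

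*Grin2d* silencing in the presence of aspartate was compared with both control groups, and these comparisons share the ASP shGRIN2D libraries. Against ASP shSCR, the log2 fold change was 0.10 (SE 0.10) for *Atp13a3*, 0.03 (SE 0.15) for *Atp13a2*, −0.14 (SE 0.27) for *Atp13a4* and −0.00042 (SE 0.11) for *Atp13a1*. The adjusted p (edgeR quasi-likelihood) was 0.772, 0.979, 0.925 and 1, so that 0 of 4 were called where 1.16% of all genes were (226 genes). 0 of 4 also had an unadjusted p under 0.05, and DESeq2 called 0 of 4. The 95% intervals stayed within −0.27 and 0.33 for *Atp13a1*, *Atp13a2* and *Atp13a3*, and ran from −0.70 to 0.42 for *Atp13a4*. Against NoASP shSCR, *Atp13a4* gave −0.48 (SE 0.28), *Atp13a3* 0.14 (SE 0.10), *Atp13a1* −0.10 (SE 0.12) and *Atp13a2* −0.04 (SE 0.15), with adjusted p = 0.630, 0.726, 0.848 and 0.988 by the same test. Again 0 of 4 were called, 0 by DESeq2 and 0 at an unadjusted p under 0.05, against 0.681% of all genes called (133 genes).

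With the *Dhps* hairpin, *Atp13a4* was 2.73-fold higher than in ASP shSCR: 9.79 ± 1.39 CPM (SD, n = 4) against 3.67 ± 1.55 CPM (n = 4), a log2 fold change of 1.45 (SE 0.23). It was 2.15-fold higher than in NoASP shSCR (4.57 ± 1.33 CPM, n = 3), a log2 fold change of 1.10 (SE 0.25), and 3.00-fold higher than in ASP shGRIN2D (3.27 ± 0.576 CPM, n = 3), a log2 fold change of 1.59 (SE 0.26). The family was chosen for this difference, which is why no test is given for it. These comparisons share the ASP shDHPS libraries and are not independent. The log2 fold change over ASP shSCR lay between 1.29 and 1.73 under the 17 other settings tried, and was 1.31 without the 3 libraries at the ends of the first principal component. It was largest without ASP shSCR replicate 4.

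The other 3 genes lay closer to their control values. *Atp13a3* had a log2 fold change of 0.04 (SE 0.09) over ASP shSCR, 0.07 (SE 0.10) over NoASP shSCR and −0.07 (SE 0.10) over ASP shGRIN2D. *Atp13a1* had 0.11 (SE 0.10), 0.01 (SE 0.11) and 0.11 (SE 0.11) in the same order. *Atp13a2* was lower on average, with −0.28 (SE 0.14), −0.34 (SE 0.15) and −0.31 (SE 0.15). The groups of *Atp13a1*, *Atp13a2* and *Atp13a3* overlapped in all 3 comparisons, and those of *Atp13a4*, by whose level the family was chosen, did not. The share of all genes whose groups overlapped was not counted, so nothing is read from this.

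As a background for these values, the edgeR test of ASP shDHPS over ASP shSCR called 4.22% of all genes (824 genes) and 1.65% as higher (322 genes). Among the 10224 genes whose mean reached 5 CPM, it called 6.93%, and 2.8% as higher. *Atp13a4* belongs to them through its level in ASP shDHPS alone, so that nothing is read from this share for it. It called 1.81% of genes (354 genes) against NoASP shSCR and 2.82% (550 genes) against ASP shGRIN2D. The replicate numbers also paired ASP shDHPS with NoASP shSCR, and with the replicate block 1036 genes were called there.

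**Figure D3:**
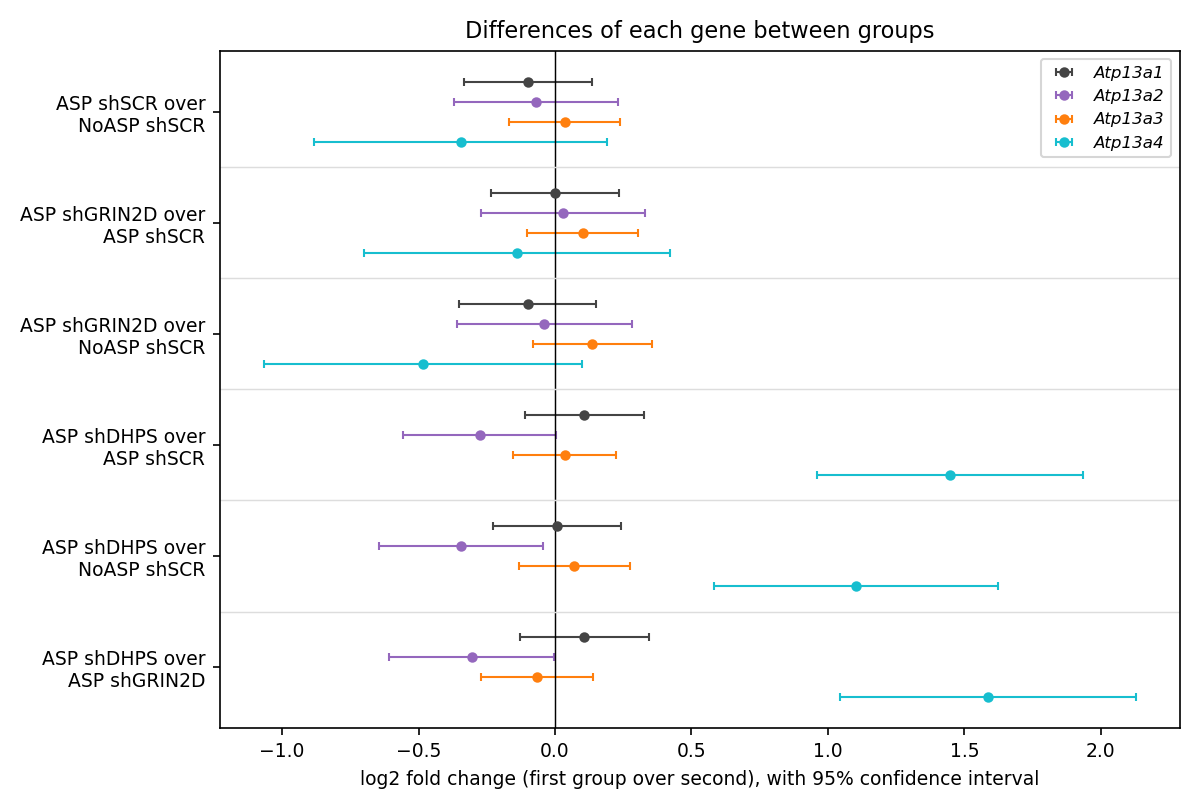
log2 fold change of each gene (horizontal axis, first group over second) in the 6 comparisons between groups (vertical axis), with the 95% confidence interval of the fit. In the upper 3 comparisons every interval spans 0. The lower 3 involve ASP shDHPS, where the level of *Atp13a4* led to the choice of the family, so their intervals are not read as a test. In these 3, the point for *Atp13a4* lies between 1.10 and 1.59 and the other genes stay near 0 or, for *Atp13a2*, between −0.34 and −0.28.

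The lower mean of *Atp13a2* in ASP shDHPS rested in part on 1 library. Without ASP shDHPS replicate 1, its log2 fold change was −0.12 over ASP shSCR, against −0.28 with it, and −0.19 over NoASP shSCR, against −0.34 with it. In the 3 replicate pairs with NoASP shSCR, *Atp13a2* was lower in ASP shDHPS each time (26.6 against 31.8, 24.1 against 25.0 and 25.1 against 29.7 CPM). None of these pairs involves that library, but 3 pairs with the same sign show little. The pairing was also inferred from these same data. The blocked value was −0.31, from a fit of all 14 libraries that includes ASP shDHPS replicate 1. Without the 3 libraries at the ends of the first principal component, the log2 fold change of *Atp13a2* was −0.10 over ASP shSCR and −0.11 over NoASP shSCR. The base composition of that library differed from the rest. *Atp13a2* has a GC-rich transcript (62.4% GC, above 98.4% of the genes with at least 5 CPM), and *Atp13a1* too (58.3%, above 90.6%), while *Atp13a3* is GC-poor (39.7%, above 4.09%) and *Atp13a4* lies between (47.4%, above 35.5%). In ASP shDHPS replicate 1, the 1019 genes with the most GC had a median log2 CPM 0.26 below their mean over the 14 libraries, with a range of −0.03 to 0.07 in the other 13 libraries. The 1019 genes with the least GC were at 0.13 there, with a range of −0.07 to 0.04 elsewhere. In the same library *Atp13a2* was at −0.79 (−0.12 to 0.28 elsewhere) and *Atp13a1* at −0.25 (−0.22 to 0.21 elsewhere). The part of base composition in the *Atp13a2* value was not tested.

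**Figure D4:**
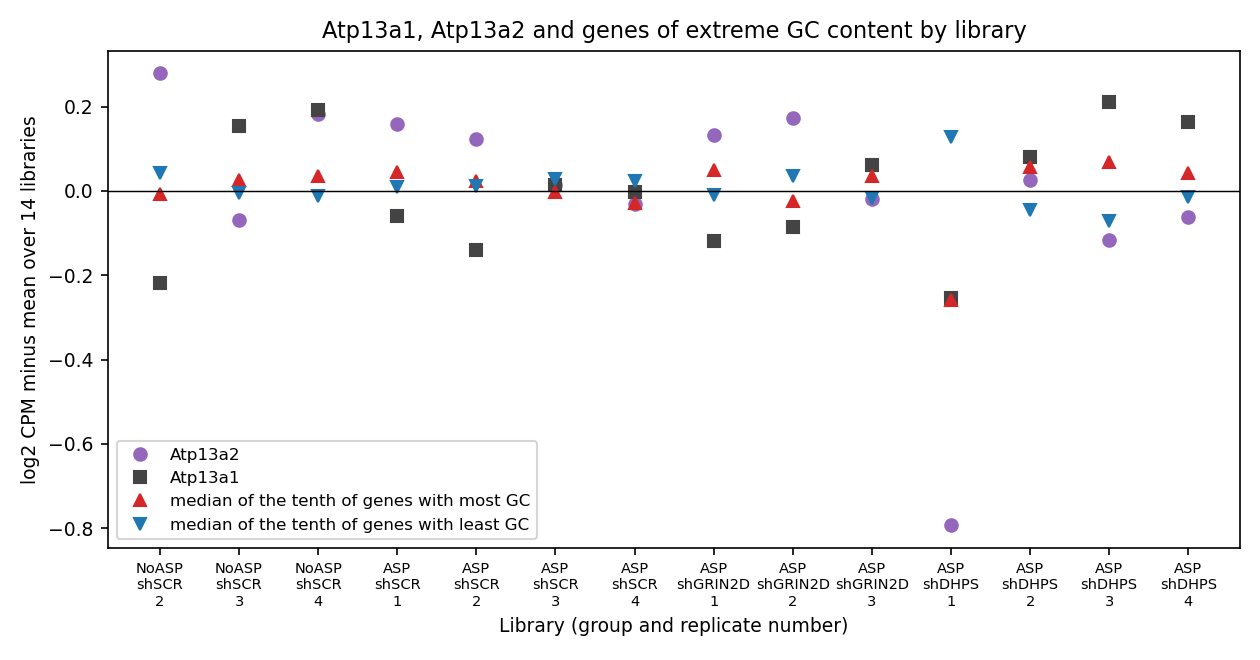
Deviation of log2 CPM from the mean over the 14 libraries (vertical axis) in each library (horizontal axis) for *Atp13a1*, *Atp13a2* and the median of the tenth of genes with the most and the least GC in their transcript (1019 genes each). ASP shDHPS replicate 1 is lowest for *Atp13a2* (−0.79) and for the GC-rich genes (−0.26) and highest for the GC-poor genes (0.13).

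*Atp13a3* and *Atp13a4* lie on the same chromosome, 16. The nearest 3 genes of the count table on either side of each, by their order in the GENCODE M21 annotation, were looked at for shared differences. None of these 12 neighbours was called in any of the 6 comparisons. Next to *Atp13a4*, *Opa1*, a mitochondrial fusion gene, had a log2 fold change of −0.11 in ASP shDHPS over ASP shSCR (edgeR adjusted p = 0.511), and *Ccdc50* had −0.23 (adjusted p = 0.209). Next to *Atp13a3*, the Notch target *Hes1* had −0.22 (adjusted p = 0.233) and *Lsg1* had 0.23 (adjusted p = 0.184). The other 8 had means below 5 CPM.

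The rest of polyamine metabolism was followed with lists chosen with earlier results of these data known, of which 29 genes were in the table: 8 of 8 for synthesis, 4 of 4 for breakdown, 5 of 5 antizymes and antizyme inhibitors, 8 of 13 other carriers and uptake factors and 4 of 4 for the use of spermidine in hypusination. As for the Atp13a genes, 0 of the 29 were called in ASP shSCR over NoASP shSCR, and 0 had an unadjusted p under 0.05 there. In ASP shGRIN2D 0 were called over ASP shSCR (3 at an unadjusted p under 0.05) and 0 over NoASP shSCR (5 at that level). DESeq2 called *Paox*, a polyamine oxidase of peroxisomes, lower in ASP shGRIN2D than in ASP shSCR, where edgeR gave a log2 fold change of −0.51 (SE 0.15, adjusted p = 0.115), and it called 0 in the others of these comparisons. With *Dhps* silencing, edgeR called 5 of the 29 over ASP shSCR, where it called 4.22% of all genes and 6.93% of those reaching 5 CPM. DESeq2 called 10 of the 29. Both counts include *Dhps*, the target of the hairpin, which was silenced by design. *Odc1*, the rate-limiting ornithine decarboxylase, rose from 513 ± 52.1 CPM in ASP shSCR to 788 ± 110 CPM in ASP shDHPS (SD, n = 4 each), a log2 fold change of 0.62 (SE 0.10, edgeR adjusted p = 0.00111). It was also higher than in NoASP shSCR (0.66, adjusted p = 0.00257) and ASP shGRIN2D (0.54, adjusted p = 0.00671). The edgeR test called none of the other 7 synthesis genes over ASP shSCR, and DESeq2 called *Amd1* and *Amd2* besides *Odc1*.

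Among the breakdown genes, *Paox* fell in ASP shDHPS from 23.4 ± 5.28 to 15.1 ± 1.63 CPM (SD, n = 4 each; log2 fold change −0.64, SE 0.13, edgeR adjusted p = 0.00813), and the other 3 were not called by edgeR, while DESeq2 called *Sat1* too. Among the carriers, *Slc3a2*, the heavy chain of amino acid exchangers that has also been linked to polyamine export, rose by 0.31 on the log2 scale (SE 0.09, adjusted p = 0.042), from 150.5 ± 11.0 to 187 ± 12.6 CPM, and edgeR called none of the other 7. This call was kept in 10 of 17 alternatives. Of the 5 genes of the antizyme group, edgeR called 0 against ASP shSCR, and DESeq2 called *Azin1* and *Azin2*. *Azin1*, an antizyme inhibitor that protects ornithine decarboxylase, rose over ASP shGRIN2D (0.61, SE 0.13, adjusted p = 0.008). *Dohh*, the enzyme that completes hypusine, rose from 43.6 ± 5.78 to 59.9 ± 4.29 CPM over ASP shSCR (0.46, SE 0.10, adjusted p = 0.0108), while the silenced *Dhps* fell by 1.48 on the log2 scale (SE 0.15, adjusted p = 8.31e-06).

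The median log2 fold change in ASP shDHPS over ASP shSCR was 0.17 for the synthesis genes, −0.04 for breakdown, 0.30 for the antizyme group and 0.19 for the carriers. It was 0.27 for hypusination, a list that includes the silenced *Dhps*, beside 0.00456 over all genes. Nothing is read from these medians for *Atp13a4*, which was chosen by its value in this comparison. Against NoASP shSCR, *Odc1* and *Dhps* were called among the 29. With the replicate block there, *Paox* (−0.53, edgeR adjusted p = 0.0074), *Slc3a2* (0.28, adjusted p = 0.0462) and *Dohh* (0.37, adjusted p = 0.0187) were called too, as were *Sat1* and *Oaz1*, which were higher in ASP shDHPS.

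**Figure D5:**
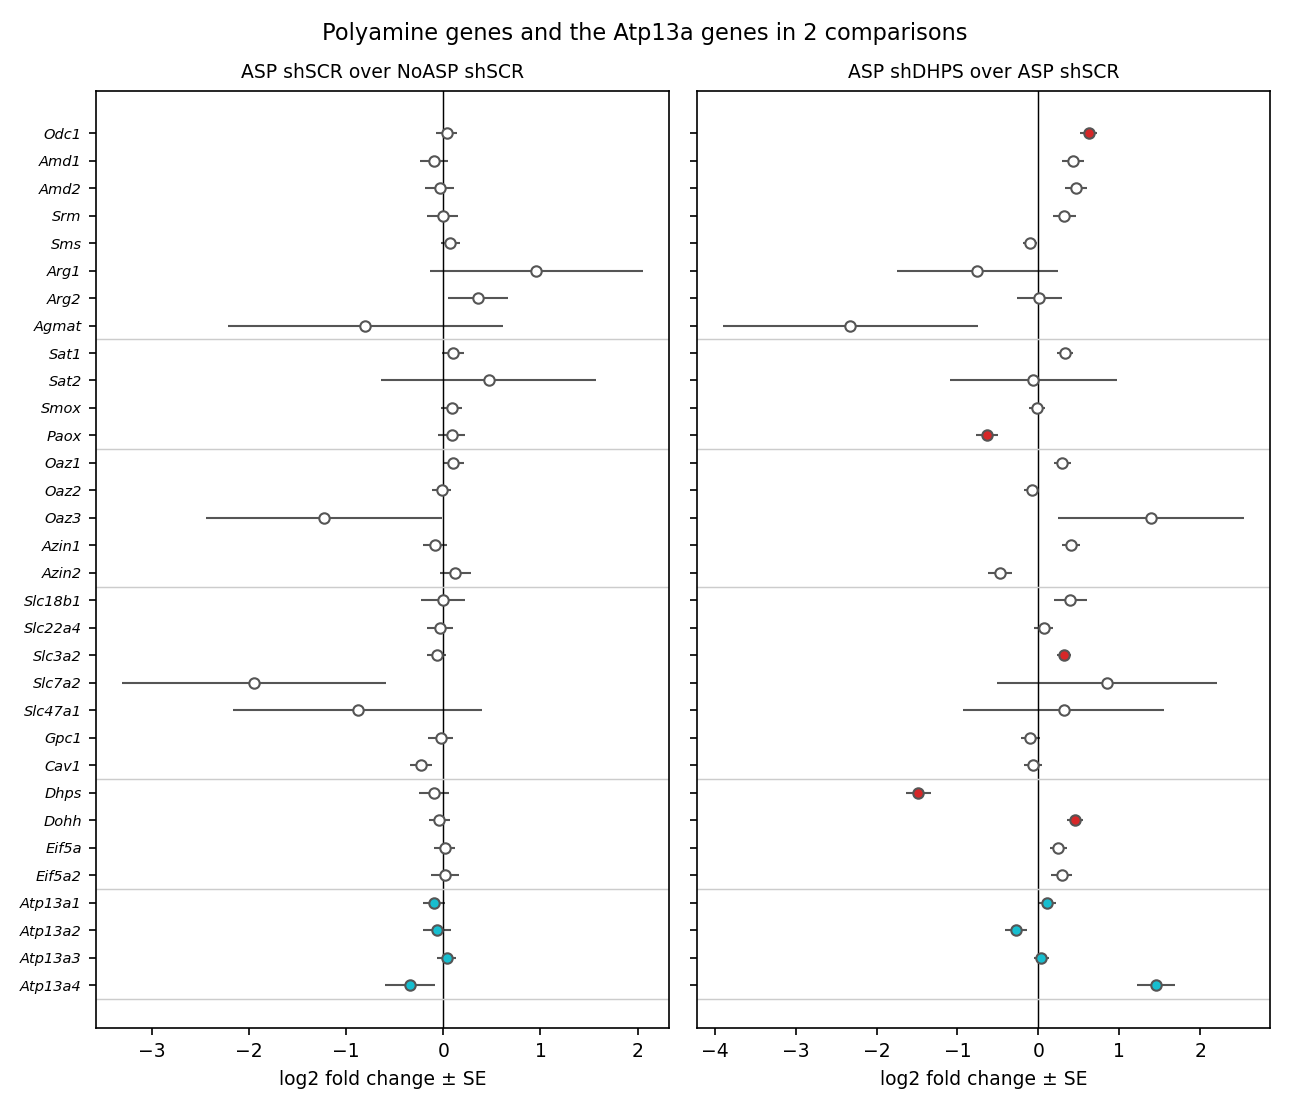
log2 fold change ± SE (horizontal axes) of the polyamine genes and the 4 Atp13a genes (vertical axis, lists divided by grey lines) in ASP shSCR over NoASP shSCR and in ASP shDHPS over ASP shSCR. Red marks list genes with an adjusted p under 0.05, white those without, and light blue the Atp13a genes. 1 gene with at most 3 counts in every library is left out. No gene is red on the left, and *Odc1*, *Paox*, *Slc3a2*, *Dohh* and *Dhps* are red on the right.

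The other P-type ATPases pump ions, metals or lipids. A list of 33 genes held these and the P5B gene *Atp13a5*, which is not among those analysed. Of the 33, 27 were in the table, 10 of them too low for an adjusted p from DESeq2. In ASP shDHPS over ASP shSCR edgeR called 0 of the 27, where it called 4.22% of all genes (5 had an unadjusted p under 0.05, and DESeq2 called *Atp2c2*), with a median log2 fold change of −0.11. Among all 6 comparisons edgeR called 1 such gene once: *Atp9a*, a lipid flippase of endosomes, was lower by 0.61 on the log2 scale in ASP shDHPS than in ASP shGRIN2D (SE 0.10, edgeR adjusted p = 0.000822). Its level was 124 ± 9.14 CPM in ASP shSCR (SD, n = 4), 125 ± 12.2 in NoASP shSCR (n = 3), 159 ± 13.6 in ASP shGRIN2D (n = 3) and 105 ± 9.07 in ASP shDHPS (n = 4). DESeq2 also called *Atp9a* in ASP shGRIN2D over ASP shSCR and over NoASP shSCR.

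ATP13A2 works in late endosomes and lysosomes, and all 34 genes of a list for this compartment were in the table. In ASP shDHPS over ASP shSCR, 11 rose and 1 fell, where 1.65% of all genes and 2.8% of those reaching 5 CPM rose. The median log2 fold change of the list was 0.22. *Atp13a2* itself had −0.28, or −0.12 without ASP shDHPS replicate 1, and its groups overlapped. The membrane protein *Lamp1* rose from 621 ± 26.4 to 935 ± 40.7 CPM (SD, n = 4 each; log2 fold change 0.59, SE 0.07, edgeR adjusted p = 9.13e-05), and the lysosomal progranulin gene *Grn* by 0.51 (SE 0.08, adjusted p = 0.00139). The sialidase *Neu1* rose by 0.65 (SE 0.12, adjusted p = 0.0028) and the protease *Ctsb* by 0.38 (SE 0.08, adjusted p = 0.00675). The gene that fell was *Mitf*, a transcription factor of lysosomal genes in some cells (−0.41, SE 0.11, adjusted p = 0.0354). Without the 3 libraries at the ends of the first principal component, 12 rose and 0 fell. Against NoASP shSCR, 7 rose and 0 fell, where 122 of all 19525 genes rose. With the replicate block 13 rose and 1 fell, where 1036 of all genes were called in either direction. Against ASP shGRIN2D, *Cd63* rose and *Glb1* and *Mitf* fell, where 550 of all genes were called in either direction. The edgeR test called 0 of the 34 in ASP shSCR over NoASP shSCR (0 at an unadjusted p under 0.05, 0 by DESeq2) and 0 in ASP shGRIN2D over NoASP shSCR (5 and 3). In ASP shGRIN2D over ASP shSCR, *Lamp1* was the 1 gene of the list that edgeR called (0.33, SE 0.08, adjusted p = 0.0416). This call was kept in 8 of 16 alternatives. In that comparison 10 of the 34 had an unadjusted p under 0.05, DESeq2 called 4, and the median log2 fold change was 0.16. Epithelial markers differed too. In ASP shDHPS against ASP shSCR, 4 of the 8 measured, *Epcam*, *Krt7*, *Krt14* and *Krt19*, were called lower, as were 502 of all 19525 genes. The median log2 fold change of these markers was −0.42. In ASP shGRIN2D against ASP shSCR, *Krt7* and *Krt18* were called lower, as were 143 of all genes, and the median of the markers was −0.33. Their part in these results, and in the *Atp13a4* difference, was not tested. In bulk libraries, fewer cells of a type and less RNA per cell cannot be told apart.

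ATP13A1 acts beside the machinery that inserts proteins into the endoplasmic reticulum membrane and removes them again. Of 22 genes of this machinery, 21 were in the table. In ASP shDHPS over ASP shSCR 3 rose and 0 fell, where 1.65% of all genes and 2.8% of those reaching 5 CPM rose. The median log2 fold change was 0.16, beside 0.11 for *Atp13a1*. Those that rose were *Emc7* (log2 fold change 0.38, SE 0.09, edgeR adjusted p = 0.0193), *Get3* (0.29, SE 0.08, adjusted p = 0.0497) and *Atad1* (0.35, SE 0.10, adjusted p = 0.0498). Without the 3 libraries at the ends of the first principal component 0 of the 21 were called, and without ASP shDHPS replicate 1 only *Emc7* was. In the other 5 comparisons edgeR called 0 of the 21, with 1 to 7 at an unadjusted p under 0.05, and DESeq2 called 0 to 2. With the replicate block, *Emc7* was called over NoASP shSCR.

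Last, the genes whose log2 CPM followed each Atp13a gene most closely over the 14 libraries were listed, among 9861 others whose mean reached 5 CPM, leaving out predicted gene models. These correlations describe libraries that share groups and, within a group, depth and composition. Those of *Atp13a4* include its high level in ASP shDHPS, by which the family was chosen. Genes that were also higher in ASP shDHPS are therefore favoured, and nothing is read from their place on the list. For *Atp13a4* the genes listed were *Mlkl* (Pearson r = 0.956), *B4galt7* (0.943), *Haspin* (0.930), *Ccn1* (0.920) and *Slc39a13* (0.910). With group means removed, r was 0.902, 0.785, 0.802, 0.726 and 0.596 in the same order. Of these 5, *Ccn1*, a secreted matrix protein, had a log2 fold change in ASP shDHPS over ASP shSCR (1.22) of a size near that of *Atp13a4*, and the other 4 had 0.30 to 0.62. For *Atp13a3* they were *Tdg* (0.918), *Mcur1* (0.881) and *Ubxn2a* (0.879), for *Atp13a2* *Tcf25* (0.952), *Hs6st1* (0.951) and *Kank2* (0.950), and for *Atp13a1* *Sf3a2* (0.927), *Ddx54* (0.911) and *Spire2* (0.903). No gene was listed for more than 1 of the 4.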

How the data were processed

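The authors trimmed reads with Trim Galore 0.6.6, mapped them with STAR 2.6.1 to GRCm39, quantified genes with Salmon 1.4.0 and rounded the values to whole numbers; the deposited table holds these counts for 19525 genes without normalization. Salmon divides ambiguous reads by estimation. The authors' tables for the aspartate comparison (log2 fold changes, p-values, gene set scores) were not used. Here edgeR 4.0.16 (R 4.3.3) was fitted to all 14 libraries with TMM factors (0.984 to 1.02), the group as the only term and the quasi-likelihood test, with Benjamini-Hochberg adjustment over all genes. A gene with an adjusted p under 0.05 was called. CPM used TMM factors, and log2 CPM a prior count of 2. GENCODE M21 (GRCm38) gave transcript lengths, GC content (known for 97.0% of genes) and gene order, and no coordinates.

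The members and the lists were chosen with earlier results of these data known. Named genes were the 4 members, the called genes of each list (at most 4, by smallest p), the silenced genes, the nearest 3 genes on each side of *Atp13a3* and *Atp13a4*, and the 5 or 3 genes most like a member. *Mitf*, *Cd63*, *Glb1*, *Atp2c2*, *Sat1*, *Oaz1*, *Azin2*, *Amd1*, *Amd2*, markers and the called epithelial genes were named after their values were seen, because counts rest on them. Replicate numbers were taken to pair libraries where deviations from group means correlated above 0.1 in each of 3 or more pairs: 0.514, 0.287 and 0.203 for ASP shSCR with NoASP shSCR, and 0.205, 0.307 and 0.373 for ASP shDHPS with NoASP shSCR. Replicates of a group differed beyond sampling noise (chi-square per degree of freedom 7.69 to 41.8 over 18 pairs). Alternatives were DESeq2 1.42.0, other scalings, filterByExpr (13421 genes), a robust prior, 2 groups only, the replicate block, and leaving out libraries.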

Additional observations from a re-analysis of the deposited data

How the results depend on the processing

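No Atp13a gene was called in the tested comparisons under any alternative, and 370 of 388 values of the 4 genes kept their direction and their side of the threshold or, where untested, stayed within 1 SD. Small values changed sign. For *Grin2d* silencing over ASP shSCR, *Atp13a1* was 0.00104 after filterByExpr and 0.036 with the replicate block, and −0.057 to 0.035 with 1 library left out. *Atp13a4* was 0.028 with the block and −0.30 to 0.14 with 1 library left out, positive without ASP shSCR replicate 4. *Atp13a2* was −0.0087 to 0.084 with 1 library left out. Over NoASP shSCR, *Atp13a2* was 0.026 with the block, 0.034 without both replicate 2 shSCR libraries, 0.038 without the 3 libraries at the ends of the first principal component (chosen after seeing the data) and −0.13 to 0.037 with 1 library left out. For aspartate, leaving out 1 library gave −0.16 to 0.0076 for *Atp13a2*, −0.025 to 0.088 for *Atp13a3* and −0.62 to −0.15 for *Atp13a4*. For ASP shDHPS over NoASP shSCR, *Atp13a2* was −0.11 without the 3 libraries.

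Counts of called genes moved more. The replicate block gave 2 for aspartate (64 within the 7 shSCR libraries), 611 and 338 for ASP shGRIN2D over ASP shSCR and NoASP shSCR, and 2150, 1036 and 1468 for ASP shDHPS over ASP shSCR, NoASP shSCR and ASP shGRIN2D. DESeq2 gave 442, 327, 1379, 898 and 933 in the last 5, in this order. A fit of 2 groups only gave 374 and 246 for ASP shGRIN2D and 177 for ASP shDHPS over NoASP shSCR. Without both replicate 2 shSCR libraries, ASP shDHPS gave 150 over NoASP shSCR and 849 over ASP shGRIN2D. Without the 3 libraries, ASP shGRIN2D gave 436 and 334, and ASP shDHPS gave 218 and 955 in the same comparisons. Leaving out 1 library gave 0 to 1 for aspartate, 86 to 208 and 56 to 121 for ASP shGRIN2D, and 412 to 894, 69 to 686 and 209 to 577 for ASP shDHPS. The cause of these changes was not tested. Outside the 2 paired comparisons, the replicate numbers did not meet the rule used here for pairing. For ASP shDHPS with ASP shSCR, deviations from group means correlated at 0.258, 0.195 and 0.201 in replicates 1, 2 and 3. In replicate 4 the correlation was 0.040, and this pair kept the comparison from meeting the rule. Whether the libraries of these 2 groups are paired was not tested further.

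*Atp13a4* had few counts and the widest intervals of the 4 genes. No hairpin-free line, second hairpin or protein measurement was analysed here.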
